A study of Schizosaccharomyces pombe with 2 samples.

Results

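The gene sre1 and 6 genes grouped with it in fission yeast (Schizosaccharomyces pombe), namely scp1, ins1, ofd1, dap1, osm1 and hmg1, were followed on 2 Affymetrix Yeast Genome 2.0 arrays. The genes were picked by their symbol in the array's annotation, and each symbol matched 1 probe set. They are 7 of the 2896 S. pombe genes that have a named probe set of their own. The untreated array carried RNA of log-phase cells given nothing, and the treated array RNA of cells exposed to DETA NONOate at 0.5 mM, with an exposure of 2 h. DETA NONOate is a compound that releases nitric oxide slowly. Both cultures were grown at 30 °C in the rich medium YES, and 250 ng of total RNA was labelled for each array. No strain or genotype is given in the labels, and no time for the untreated culture. No array of cells given the spent compound was analysed here, so the effect of the gas and that of the rest of the compound cannot be told apart.

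Sre1 is the member in fission yeast of the sterol regulatory element binding protein family known from mammals. It is made as a membrane-bound precursor, and when sterols or oxygen are scarce its N-terminal part is cut free, enters the nucleus and activates genes for sterol synthesis and for life with little oxygen, sre1 among them. The link to oxygen runs partly through sterols, since ergosterol synthesis consumes oxygen, and partly through Ofd1, an oxygen-dependent dioxygenase that hastens breakdown of the nuclear form. The arrays measure RNA only, so cleavage, nuclear entry and breakdown of Sre1 are outside what they show.

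Of the 7 genes, sre1 and osm1 were at least 2-fold higher on the array of treated cells, dap1 was just under 2-fold higher, and the other 4 genes had log2 ratios between 0.01 and 0.30. None was lower. The gene for the transcription factor therefore stood well apart from the genes for its escort protein, its oxygen-dependent regulator and the sterol enzyme hmg1. Counted at 2-fold, 2 of 7 were higher, where 2.25% of the 2889 measured S. pombe genes were. Lower at 2-fold were 0 of 7, beside 2.04% of the measured genes. The 7 genes were chosen with earlier results of these data known, so neither these counts nor the median below is a test of the group. The median log2 ratio of the 7 genes was 0.30, against -0.01 over all measured genes, of which 1422 had a ratio above 0 and 1467 below. Log2 ratios are given throughout as treated minus untreated, and 2-fold was the threshold because 1 array per group leaves no replicate spread to test against. No p-value is given for any difference.

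The precision is limited by the number of arrays. The nearest thing to a repeat measurement is the set of control RNAs added to each sample. In the 23 added-control probe sets with a signal of at least 100 on both arrays, the log2 ratios had an SD of 0.12 and ran from -0.31 to 0.21. Over all 45 such probe sets, the dim ones included, the SD was 0.54 and 2 differed 2-fold or more. These controls cover labelling and hybridization and leave out differences between cultures. Signals of the 7 genes lay between 612 and 4477, far over the background levels, which were 7.99 without and 8.76 with the treatment. That background is the 95th percentile of 2601 probe sets made for genes of the budding yeast Saccharomyces cerevisiae, whose RNA was not applied. The array's S. cerevisiae probe sets for genes of the same name read 2.13 and then 2.41 for OSM1 and 0.473 and then 1.48 for DAP1 (untreated value first, here and in what follows), both under background. That for HMG1 read 6.23 and 10.5, so it passed the background on the treated array.

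**Figure D1:**
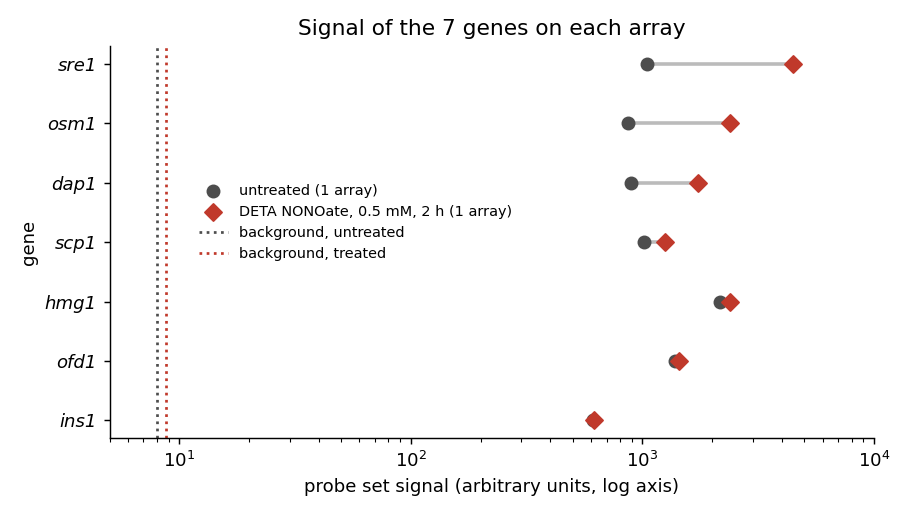
Probe set signal of each of the 7 genes on the untreated array (grey circles) and the array of cells treated with DETA NONOate (red diamonds), on a log axis in arbitrary units, with 1 array per group and dotted lines at the background of each array. The gap is widest for sre1 (1050 and 4477), followed by osm1 (866 and 2383) and dap1 (891 and 1736), while the symbols of ins1, ofd1 and hmg1 nearly coincide.

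The regulator itself had the largest ratio of the 7 genes. The probe set of sre1 (SPBC19C2.09) read 1050 without and 4477 with the donor, 4.26-fold higher with a log2 ratio of 2.09. It had rank 12 of 2889 measured genes counted from the highest ratio. None of the 23 brighter added controls had a ratio of that size. In the RefSeq gene table, sre1 lies next to the splicing factor gene prp38, which read 438 and 419, a log2 ratio of -0.07. The neighbour prp38 thus read nearly alike on both arrays, while the gene on the other side, SPBC19C2.10, had no measured value.

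Sre2 is a related membrane-bound protein of this family. Its gene sre2 read 395 and 458, a log2 ratio of 0.21. The difference between the log2 ratios of sre1 and its escort gene scp1, a quantity that does not depend on the scaling factor of either array, was 1.79. The same difference was 2.05 against ofd1, 2.08 against ins1 and 1.95 against hmg1.

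The genes scp1, ins1 and hmg1 stayed within 2-fold. Scp1 is the counterpart of mammalian SCAP, the protein that holds the Sre1 precursor and makes its cleavage depend on sterols. The gene scp1 (SPBC3B9.15C) read 1014 and 1248, 1.23-fold higher with a log2 ratio of 0.30. In size, 1 of the 23 brighter added controls had a ratio as large or larger. That control was lower (-0.31), and the highest control ratio was 0.21. Ins1 is the counterpart of mammalian Insig, and in fission yeast it acts on the sterol enzyme Hmg1, whose phosphorylation it promotes. The gene ins1 (SPCC306.05C) read 612 and 616, a log2 ratio of 0.01, and 22 of the 23 added controls had a larger ratio in size. Hmg1, HMG-CoA reductase, makes mevalonate and controls the flow into sterol synthesis. The gene hmg1 (SPCC162.09C) read 2157 and 2382, a log2 ratio of 0.14. That is within the range of the added controls, as are the ratios of ins1 and ofd1.

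Ofd1, named above as the brake on nuclear Sre1, needs iron and 2-oxoglutarate as well as oxygen. The gene ofd1 (SPBC6B1.08C) read 1389 and 1433, a log2 ratio of 0.05. The RefSeq transcript of ofd1 overlaps that of the splicing factor gene prp1, whose own probe set read 787 and 826 with a log2 ratio of 0.07, and the strand of each transcript is not in the table used here. Nro1 binds Ofd1 and inhibits it. Its gene nro1 read 1786 and 1942, a log2 ratio of 0.12. Both genes of this oxygen-dependent switch thus had ratios inside the range of the added controls.

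Ofd1 belongs to a wide family of dioxygenases that use iron and 2-oxoglutarate, and 7 of 8 listed relatives were measured, abh1 having no match. Among them 2 were at least 2-fold higher and 0 at least 2-fold lower, beside 2.25% and 2.04% of all measured genes. The median log2 ratio was 0.21. Those 2 were ofd2, which read 448 and 974 (2.17-fold higher), and jmj1, a gene of the jumonji family, which read 376 and 787 (2.10-fold higher). The histone demethylase family gene lid2 had a log2 ratio of 0.24, jmj3 0.21, isp7 0.09, jmj2 0.08 and jmj4 -0.003, the last with a sign that turned under each of the 3 other scalings run. The 2 genes past 2-fold thus stood apart from ofd1 and from the other 5 relatives.

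The cleavage machinery of Sre1 was read through a further list. The Golgi Dsc E3 ligase, built from Dsc1 to Dsc5, is needed to cut the Sre1 precursor, with the ubiquitin-conjugating enzyme Ubc4 and the ATPase Cdc48. With sre2 and nro1, which are not part of this machinery, this made 9 measured genes of 10 listed. The gene rbd2 had no match, so the list was not read in full. At 2-fold, 0 of 9 were higher and 0 lower, beside 2.25% and 2.04% of all measured genes. The median log2 ratio was 0.16. The subunit genes had log2 ratios of -0.14 for dsc1, 0.07 for dsc2, -0.005 for dsc3, 0.16 for dsc4 and 0.36 for dsc5, the last one listed on the array as ucp10. The ratio of dsc5, with signals of 449 and 578, was the highest of the 9. Cdc48 and ubc4 had ratios of 0.20 and 0.16, and that of ubc4 changed sign to -0.01 under quantile normalization and to -0.04 with a signal trend removed. The sign of dsc3, whose ratio is near 0, turned under median centring, quantile normalization (0.05) and trend removal (0.03).

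**Figure D2:**
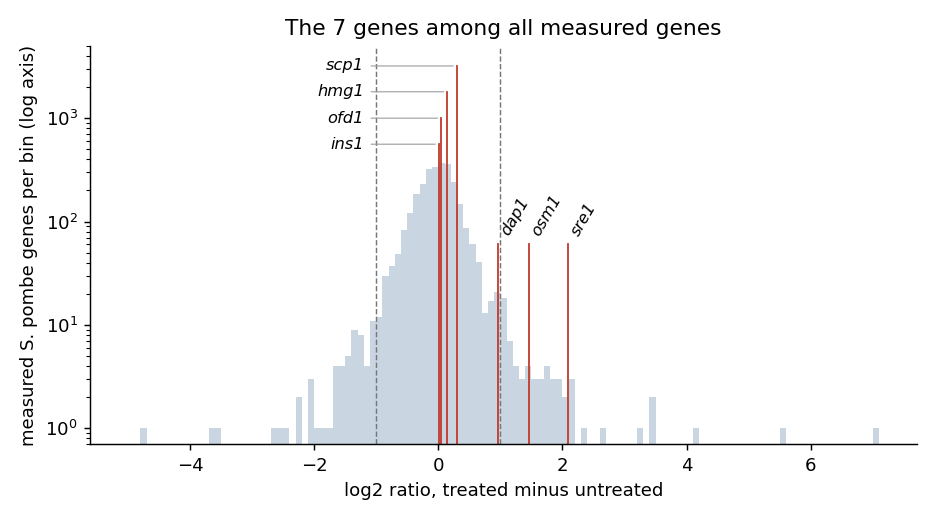
Histogram of the log2 ratio, treated minus untreated, of the 2889 measured S. pombe genes in bins of 0.1, with the number of genes on a log axis, red lines at the 7 genes and dashed lines at 2-fold. The genes ins1, ofd1, hmg1 and scp1 lie in the central mass, dap1 (0.96) lies at its upper edge, and osm1 (1.46) and sre1 (2.09) lie in the thin upper tail.

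The remaining genes of the group were dap1 and osm1. Dap1 is a haem-binding protein that supports the cytochrome P450 enzymes of sterol synthesis, Erg11 and Erg5. The gene dap1 (SPAC25B8.01) read 891 and 1736, 1.95-fold higher with a log2 ratio of 0.96, rank 71 of 2889. It lay just outside the central 95% of measured genes, which ran from -0.90 to 0.95, and just under the 2-fold threshold. The genes of the P450 enzymes stayed within 2-fold, with signals of 4677 and 2782 for erg11 (log2 ratio -0.75) and 5401 and 4175 for erg5 (log2 ratio -0.37). The genome neighbours of dap1, kei1 and sds3, had log2 ratios of 0.35 and 0.32.

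Osm1 is a fumarate reductase, an enzyme that turns fumarate into succinate and so can take up electrons when oxygen is short, a role best known from budding yeast. The gene osm1 (SPAC17A2.05) read 866 and 2383, 2.75-fold higher with a log2 ratio of 1.46, rank 32 of 2889. Its genome neighbours cns1 and vps8 had log2 ratios of -0.64 and 0.20. Succinate dehydrogenase catalyses the reverse reaction in the respiratory chain, and its genes were lower on the treated array. The flavoprotein subunit gene sdh1 read 6635 and 1579 (log2 ratio -2.07). The iron-sulphur subunit gene sdh2 read 3879 and 641 (-2.60), sdh3 read 3647 and 576 (-2.66), and sdh4, which RefSeq names tim18, read 2338 and 189 (-3.63). Fumarase, which turns fumarate into malate, was 1.62-fold lower at fum1, with signals of 1802 and 1113. Of these 5 genes, 4 passed 2-fold in the lower direction and 0 in the higher, beside 2.04% and 2.25% of all measured genes. Their median log2 ratio was -2.60.

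Among the 12 measured genome neighbours of the 7 genes, of 14 in all, 1 differed 2-fold or more. It was ppk33, a protein kinase gene beside hmg1, which read 46.3 and 94.5, a log2 ratio of 1.03 at a low signal. Of the 178 genes under a signal of 100 on both arrays 10.1% differed 2-fold, against 3.91% of the 2711 brighter genes. The neighbours ran from -0.64 to 1.03 with a median of 0.05.

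Genes with a similar reading were sought for sre1 and osm1 by the distance between the pairs of log2 signals, over 2 arrays. Signals of different probe sets are not on one scale, so the nearness describes probe sets and not transcript numbers. Nearest to sre1 were zym1 (distance 0.24), which encodes a metallothionein and read 1018 and 3804, sib1 (0.45), for ferrichrome synthesis, which read 1350 and 5378, and abc3 (0.53), a vacuolar transporter gene, which read 914 and 3182. Nearest to osm1 were yak3 (0.25), which read 907 and 2019, css1 (0.27), which read 1038 and 2523, and mug108 (0.39), which read 981 and 1879. With 1 array per group the likeness rests on 2 values per gene.

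A short list, chosen with earlier results of these data known, set hem13 and pof14 beside the 7 genes as low-oxygen genes. The coproporphyrinogen oxidase gene hem13, whose enzyme uses oxygen to make haem, read 2260 and 4863, a log2 ratio of 1.11. The gene pof14, for an F-box protein that binds the squalene synthase Erg9, read 274 and 1180, a log2 ratio of 2.11, next to that of sre1 in rank (11 and 12). Both of these 2 genes were at least 2-fold higher, beside 2.25% of all measured genes. Haem synthesis as a whole was not higher. There 1 of 7 genes, hem13, was at least 2-fold higher and 1, hem3, at least 2-fold lower (signals 3268 and 1382), beside 2.25% and 2.04%. The median log2 ratio of that list was 0.06.

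Several enzymes of lipid and haem synthesis consume oxygen. Of 9 measured genes of 10 listed, 2 were at least 2-fold higher and 0 at least 2-fold lower, beside 2.25% and 2.04% of all measured genes. The median log2 ratio was -0.12. The 2 higher genes were hem13 and the sphingolipid hydroxylase gene sur2, which read 1710 and 5358, 3.13-fold higher. As hem13, given above, is also in the haem and short lists, their counts are not separate results. The fatty acid hydroxylase gene scs7 read 1991 and 3931, 1.97-fold higher and so under the threshold, which it passed with a signal trend removed (log2 ratio 1.03, making 3 genes). The sterol C4-methyl oxidase gene erg25 had a log2 ratio of 0.82, and the squalene epoxidase gene erg1, which catalyses the first oxygen-requiring step of sterol synthesis, had -0.82, both within 2-fold. The gene ole1 had no match.

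**Figure D3:**
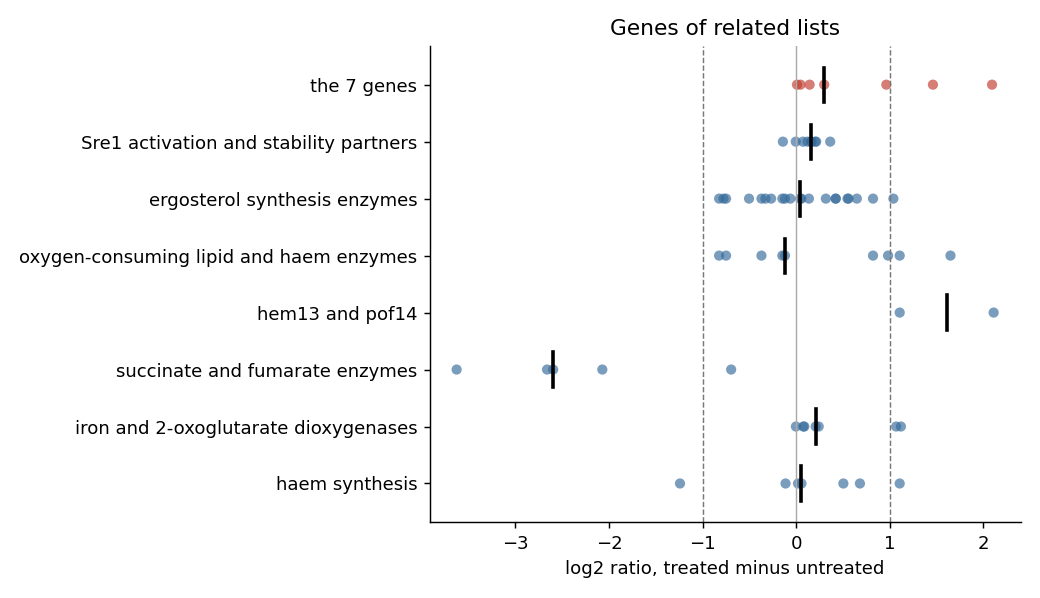
Log2 ratio, treated minus untreated, of the 7 genes (red) and of the genes of 7 related lists (blue), with a black bar at each median and dashed lines at 2-fold. The list of Sre1 activation and stability partners, which also holds sre2, stays between -0.14 and 0.36. The ergosterol enzymes lie between -0.82 and 1.04, and the succinate and fumarate enzymes between -3.63 and -0.70.

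The ergosterol synthesis genes gave the setting of hmg1 and dap1. Of 21 measured genes, 1, erg24, was at least 2-fold higher (signals 1224 and 2513) and 0 were at least 2-fold lower. The shares of all measured genes were 2.25% and 2.04%. Ratios were above 0 in 11 and below 0 in 10, and the median log2 ratio was 0.04. The run of signs along the pathway order was seen afterwards and was not tested. Before erg1 the signs were mixed. Log2 ratios there included 0.32 at erg10, -0.27 at erg8, 0.05 at mvd1, -0.78 at idi1, 0.04 at fps1 and 0.14 at erg9. The ratios of erg1 (-0.82), erg7 (-0.50) and erg11 (-0.75) were below 0. Those of the measured genes from erg24 to erg2 were above 0, from 0.42 at erg6 to 1.04 at erg24. Below 0 again were erg31, erg32 and erg5, while the last gene in the order, erg4, was above 0 (0.42). Of the steps nearest to hmg1, the HMG-CoA synthase gene hcs1 had a log2 ratio of -0.33 and the mevalonate kinase gene erg12 had -0.06. The gene erg26 had no match, and sts1 is named erg4 in RefSeq.

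**Figure D4:**
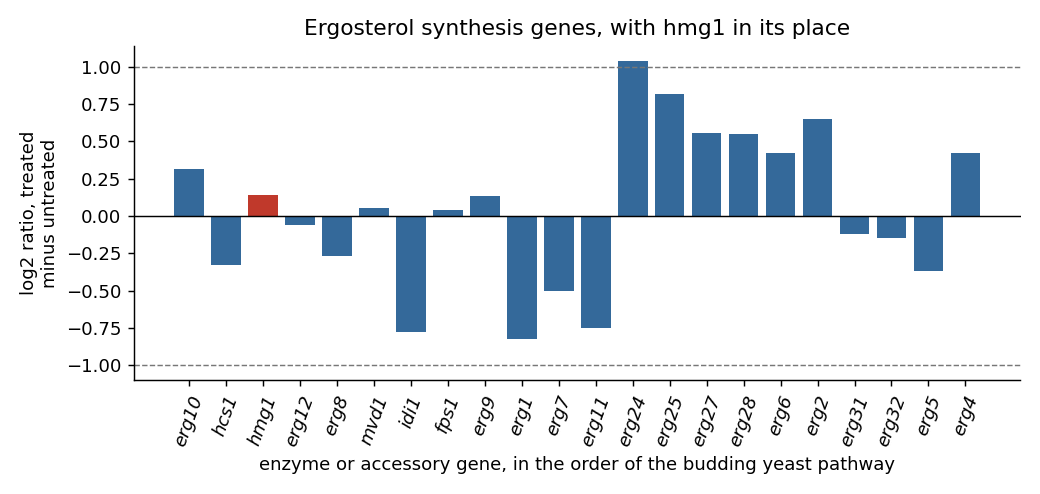
Log2 ratio, treated minus untreated, of 21 ergosterol synthesis genes (blue) and hmg1 (red), ordered as in the budding yeast pathway, with erg28 an accessory gene and dashed lines at 2-fold. The bar of erg24 (1.04) passes the dashed line, all others stay within 2-fold (lowest -0.82 at erg1), and the bar of hmg1 (0.14) is short.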

How the data were processed

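The authors deposited 1 linear intensity per probe set and array. Per the submitters' processing notes these came from Affymetrix Expression Console. Its version and summarising algorithm are not stated in the labels. The 2% trimmed means were 500.29 and 500.32, so both arrays had been scaled alike. A shift common to all transcripts would not be seen.

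Groups were taken from the treatment in the labels. Of 10928 probe sets, 2914 named 1 S. pombe gene through the platform annotation, which can be old. Those of several genes (20), of unsettled species (3) or without a name (5177) were left out. Gene IDs gave current names from the RefSeq table (ASM294v3), used for names and neighbours only. A gene with several probe sets was represented by the brightest. Signals under each array's background, the 95th percentile of S. cerevisiae probe sets, were raised to it before log2. A gene was measured if over background on at least 1 array. Counts are at 2-fold. The steps were run on simulated data with known changes put in. That checks the calculation and does not measure variation between arrays or cultures.

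The 7 genes and the 7 related lists were chosen with earlier results of these data known. All genes of the lists could be named. For sre1 and osm1 the 3 nearest genes were named, and the neighbours by their place in the genome. Alternatives were other floors, scalings, thresholds and probe set rules. Python 3.11.15, pandas 2.3.3 and statsmodels 0.14.6 were used.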

Additional observations from a re-analysis of the deposited data

How the results depend on the processing

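Under 5 alternatives, namely no background level with 16 added to each signal, the 99th percentile as background, median centring, quantile normalization and removal of a loess trend (span 0.3), the log2 ratio of each of the 7 genes moved by at most 0.04 and kept its sign. The ranges were 2.08 to 2.13 for sre1, 1.44 to 1.501 for osm1, 0.95 to 1.003 for dap1 and 0.29 to 0.34 for scp1. With the loess trend removed, dap1 passed 2-fold, so 3 of the 7 genes were then higher. At 1.5-fold, 3 of 7 genes were higher, beside 164 measured genes higher and 191 lower (5.68% and 6.61%). At 3-fold, 1 of 7, sre1, was higher, beside 26 measured genes higher and 18 lower (0.900% and 0.623%). The number of the 7 genes that were lower was 0 under every alternative run. At 2-fold the measured genes higher numbered 57 to 72 and those lower 54 to 60. No paired analysis was possible because each group has 1 array. For the same reason no replicate could be left out, and differences between cultures cannot be told apart from the treatment.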
